A study of Mus musculus with 9 samples.

Results

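All 10 genes chosen here for the acrosomal matrix and for binding to the zona pellucida had a row in both deposited tables, among 21877 NCBI gene rows and 50493 features in all. They were picked by symbol, with no measured value in the rule, but with earlier results of these data known. The 10 are Acr, Acrbp, Acrv1, Zpbp, Zpbp2, Spam1, Zp3r, Spaca3, Spaca7 and Spaca9. All 10 are annotated as protein-coding on GRCm38.p6, and all 10 passed the filter on low counts with the lowest count of any of them at 434 (Spaca9 in 1 pachytene library). RNA of wild-type mouse testis cells was sequenced in 9 libraries, 3 each of pachytene spermatocytes (PAC, cells in meiotic prophase), round spermatids (RS, haploid after meiosis) and spermatids in elongation (ES, which condense the nucleus and build the tail). No allele, agent, strain or age is named for any group, and neither the method of cell isolation nor the animals behind a library are given in the sources used here.

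The acrosome is a secretory vesicle that grows from the Golgi of the round spermatid and comes to cap the sperm nucleus. Its soluble and matrix contents are released when sperm meet the egg's coats, and they take part in passage through the cumulus cells, whose matrix holds hyaluronan, and in contact with the zona pellucida, the glycoprotein coat of the egg. Acr encodes acrosin, a serine protease stored as an inactive precursor, and Acrbp the protein that binds that precursor. Acrv1 (SP-10) is an acrosomal matrix protein. Zpbp and its paralog Zpbp2 are matrix proteins named for zona binding and needed for a normal acrosome shape. Zp3r (sp56) is a matrix protein related to complement-binding proteins. Spam1 (PH-20) is the membrane-anchored sperm hyaluronidase, Spaca7 is released with the acrosomal content and bears on cumulus dispersal, and Spaca3 is a lysozyme-like protein. Spaca9, named as acrosome-associated, encodes a protein also found inside the microtubules of cilia and flagella.

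Total counts ran from 22910156 to 33801617 per library. ES replicate 1 stood apart, with a TMM scaling factor of 0.758 against 0.924 and 0.923 in the other ES libraries, and results that rest on ES are given without it where that changes them. Marker genes were read beside the labels. All 12 elongating spermatid markers were higher in ES than in PAC and 11 of 13 pachytene markers were lower there. In RS against PAC 9 of the 13 pachytene markers were lower and 1, Adam3, was higher. Against RS, 11 elongating spermatid markers were higher in ES, but so were 5 of the 13 pachytene markers, with 1 lower. Of the 7 round spermatid markers 6 were higher in RS than in PAC, and Spata16 was lower. From RS to ES 6 of the 7 fell and Tssk6 rose. Genes of other cells also differed. The 16 Sertoli cell genes summed to between 66.9 and 162 CPM in PAC, 55.9 and 62.3 in RS, and 493 and 581 in ES, with Inhba at 0 in PAC and Amh and Fshr at 0 in RS. Most of the RS sum was Amhr2, with means of 40.0, 47.7 and 186 CPM in PAC, RS and ES. Of the 13 Sertoli cell genes tested, 12 were lower in RS than in PAC, as were 34.2% of all features. All 13 were higher in ES than in RS, as were 24.5% of all features. Hormone-producing Leydig cells of the testis were represented by 9 genes that summed to between 106 and 143 CPM in PAC, 2.11 and 2.24 in RS, and 19.7 and 26.3 in ES, with Lhcgr at 0 in RS. The 11 macrophage and blood genes summed to between 6.16 and 7.86 CPM in PAC, 19.2 and 23.5 in RS, and 141 and 225 in ES, none of them at 0 in a whole cell type. Most of the ES sum was from the globin genes Hba-a1 and Hbb-bs, with means of 48.9 and 85.3 CPM there. The macrophage gene C1qb had 24.7 CPM in ES. Of the 9 tested, 6 were higher in ES than in RS and 0 lower, and Ptprc had no call in any comparison. The part of these cells in the results was not tested. CPM are library-scaled counts (TMM) in the usual per-million unit, and in bulk RNA like this fewer cells of a type and less RNA per cell cannot be told apart.

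The acrosomal genes followed 3 courses. Acrv1, Spam1, Zp3r, Spaca3 and Spaca7 were low in PAC, rose in RS and fell in ES. Acrbp, Zpbp and Zpbp2 did not pass the test between PAC and RS and fell in ES, and Acr, whose PAC and ES libraries varied widely, had no call in any of the 3 comparisons. Spaca9 alone among the 10 rose in RS with no call between RS and ES. Across all 26030 features tested, 72.5% were called in RS against PAC, 46.6% in ES against RS and 64.4% in ES against PAC, so a call by itself was common. In RS against PAC 6 of the 10 rose, where 38.2% of features were called higher, and 0 fell, where 34.2% were called lower (edgeR's quasi-likelihood test, adjusted p below 0.05). No member was lower at an unadjusted p below 0.05 either, and DESeq2 and limma on log2(FPKM + 1) also called 6 higher and 0 lower. In ES against RS 8 of the 10 fell, against 22.1% of all features, and 0 rose, against 24.5%. Again no member was higher at an unadjusted p below 0.05, DESeq2 called 8 lower and 0 higher, and limma 9 lower and 0 higher. In ES against PAC 3 rose (30.6% of all features) and 3 fell (33.7%), and here the tools differed: DESeq2 called 6 higher and 3 lower, and limma on FPKM 2 higher and 4 lower. Counted by libraries that do not overlap in CPM, with no test, the figures were close. In RS against PAC 6 of the 10 lay wholly higher and 0 wholly lower, where 79.1% of all features did not overlap (42.1% higher, 37.0% lower). In ES against RS 9 lay wholly lower and 0 higher, where 59.4% did not overlap (30.2% higher, 29.3% lower). In ES against PAC 4 lay wholly higher and 3 lower, where 67.5% did not overlap (32.0% higher, 35.5% lower). The pattern of being higher in RS than in PAC and then lower in ES held for 5 of the 10, and for 13.4% of features. The pattern of no call from PAC to RS with ES below both held for 3, and for 4.36% of features, and that of Spaca9 for 13.7% of features. The median log2 fold change of the 10 was 1.54 in RS against PAC, -1.06 in ES against RS and 0.23 in ES against PAC, where the medians over all features were 0.11, 0.05 and -0.09, and over tested NCBI genes alone, the class of the 10, -0.46, 0.18 and -0.38. The 3 comparisons share libraries, so their values are given side by side and not as separate support. Since the 10 were chosen with earlier results of these data known, their counts stand beside the shares of all features without a test. Summed over the 10 genes, the level was 1517 ± 24.9 CPM (SD, n = 3) in PAC, 2405 ± 95.8 in RS and 1201 ± 33.4 in ES. RS was highest and ES lowest. Zpbp weighed most in this sum, with means of 573, 622 and 303 CPM in PAC, RS and ES. The order of the sums is thus not that of each gene, and the median log2 fold change in ES against PAC was 0.23.

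**Figure D1:**
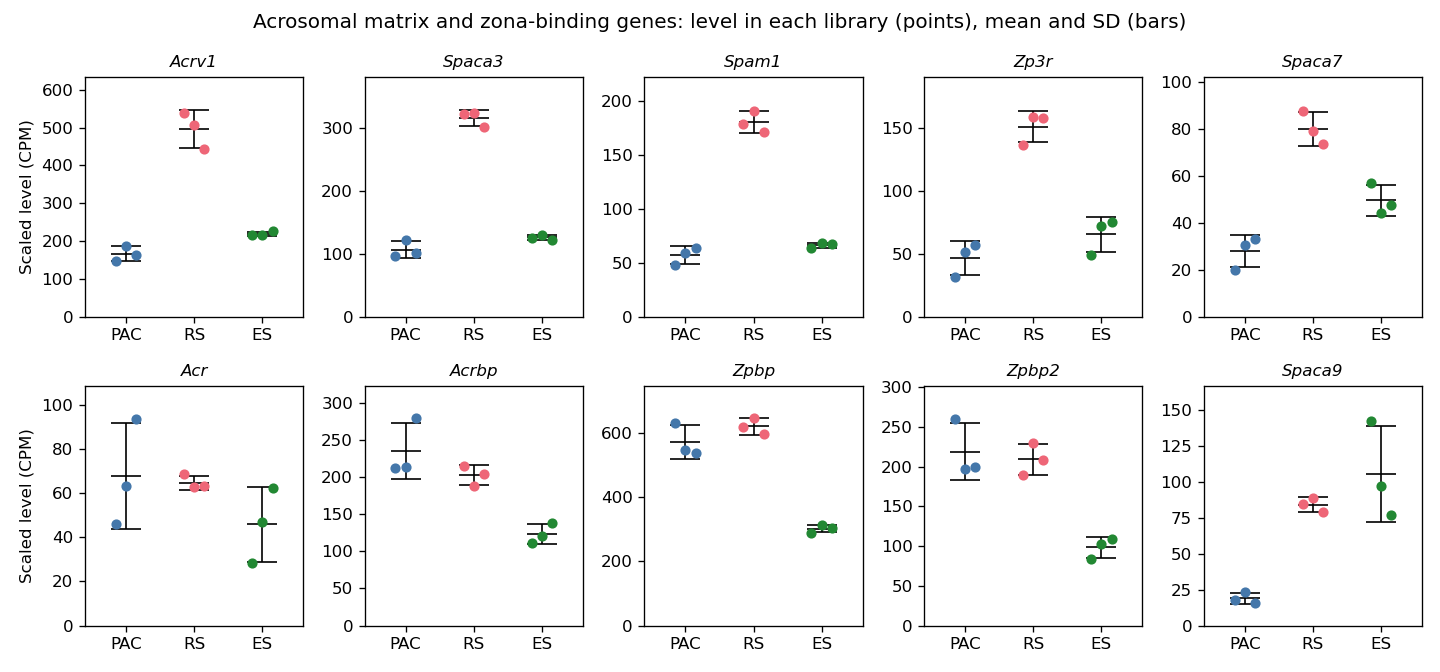
Level of each of the 10 genes in CPM (vertical axis from 0) in the 3 libraries of PAC, RS and ES (points), with the mean and SD (bars). The upper row holds the 5 genes whose RS libraries all lie above those of PAC and ES; in the lower row Acr, Acrbp, Zpbp and Zpbp2 have overlapping PAC and RS libraries and Spaca9 has overlapping RS and ES libraries.

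Acr and Acrbp, the protease and the protein that binds its precursor, had no call between PAC and RS. Acr (chromosome 15, 89568326 to 89578853) had 46.3, 63.3 and 93.7 CPM in PAC replicates 1, 2 and 3, then 68.6, 62.8 and 63.3 in RS, and lastly 28.4, 46.9 and 62.4 in ES. The PAC libraries enclosed all of RS, and ES lay just under RS, its highest library at 62.4 and the lowest RS library at 62.8. The log2 fold change of Acr was -0.06 (SE 0.29, adjusted p = 0.852) from PAC to RS and -0.50 (SE 0.29, adjusted p = 0.187) from RS to ES. In ES against PAC it was -0.56 (SE 0.29, adjusted p = 0.115). The change from RS to ES was called lower in 4 of 20 alternatives. It passed from FPKM (-0.87 with a pseudocount of 1, adjusted p = 0.0403 by limma) and without ES replicate 3 (-0.79). Without ES replicate 1 it was -0.25 (adjusted p = 0.465 by edgeR). The difference of ES from PAC passed in 5 of 20 alternatives, among them FPKM (-0.82, adjusted p = 0.0404) and without PAC replicate 1 (-0.80) or ES replicate 3 (-0.85). Acrbp (chromosome 6, 125049927 to 125063265) had 212, 214 and 279 CPM in PAC, 215, 188 and 203 in RS, and 111, 121 and 138 in ES. All ES libraries lay below those of PAC and RS, which overlapped each other. Acrbp fell 1.64-fold from RS to ES (-0.71 on the log2 scale, SE 0.15, adjusted p = 0.00214). Its change from PAC to RS did not pass (-0.22, SE 0.15, adjusted p = 0.199). Per length of transcript (FPKM) Acrbp stood 3.71 ± 0.819, 3.25 ± 0.104 and 3.05 ± 0.973 times (SD, n = 3) as high as Acr in PAC, RS and ES, with all 3 cell types overlapping.

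Acrv1, also a gene of the acrosomal matrix, peaked in RS and was the most abundant of the 10 per length there. Acrv1 (chromosome 9, 36693220 to 36698845) had 147, 186 and 163 CPM in PAC, 538, 508 and 442 in RS, and 214.5, 215 and 226 in ES. No cell types overlapped: every RS library was above every ES library, and every ES library above every PAC library. Acrv1 rose 2.995-fold in RS (log2 fold change 1.58, SE 0.14, adjusted p = 2.02e-06) and fell 2.27-fold in ES (-1.18, SE 0.13, adjusted p = 3.85e-05). Its ES level stayed above PAC by 0.40 on the log2 scale (SE 0.13, adjusted p = 0.0195). That small difference was 0.11 and no longer past the threshold when libraries were scaled by total counts alone, and in FPKM the libraries of ES and PAC overlapped. It also missed the threshold without PAC replicate 1 (0.30), PAC replicate 3 (0.37) or ES replicate 3 (0.37).

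The genes named for zona binding split between the courses. Zpbp (chromosome 11, 11279624 to 11464223), the longest of the 10 in the genome, had 632, 548 and 538 CPM in PAC, 618, 649 and 598 in RS, and 290, 315 and 304 in ES. Zpbp2 (chromosome 11, 98551097 to 98558665) followed it with 260.3, 197 and 199.6 CPM in PAC, 190.2, 230 and 208 in RS, and 83.8, 103 and 109 in ES. In CPM the PAC and RS libraries of both paralogs overlapped, and every ES library lay below all the others. In FPKM every RS library of Zpbp lay above every PAC library, the nearest at 179 and 172. Zpbp fell 2.05-fold from RS to ES (log2 change -1.04, SE 0.12, adjusted p = 4.49e-05), and Zpbp2 fell 2.13-fold (-1.09, SE 0.16, adjusted p = 0.000199). From PAC to RS the log2 fold changes were 0.12 (SE 0.12, adjusted p = 0.379) for Zpbp and -0.07 (SE 0.16, adjusted p = 0.713) for Zpbp2. With upper-quartile scaling Zpbp passed the threshold as higher in RS (0.43), and so it did among NCBI gene rows alone (0.51). The ratio of Zpbp to Zpbp2 in FPKM was 1.009 ± 0.0721 (SD, n = 3) in PAC, 1.21 ± 0.0988 in RS and 1.21 ± 0.119 in ES. The annotated spans of Zpbp and Spata48 share 480 bases. Spata48 was at 15.5, 32.6 and 38.6 CPM in PAC, RS and ES. The libraries kept strand, but whether the counting used it is not given in the sources used here, so reads from those bases may belong to either gene.

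Zp3r (chromosome 1, 130547110 to 130629634) went with Acrv1 and not with the Zpbp genes. It had 31.6, 51.4 and 57.1 CPM in PAC, 137, 158 and 158 in RS, and 48.8, 71.9 and 74.6 in ES. All RS libraries lay above all others, while ES and PAC overlapped. Zp3r rose 3.23-fold in RS (log2 fold change 1.69, SE 0.23, adjusted p = 5.35e-05) and fell 2.31-fold in ES (-1.21, SE 0.22, adjusted p = 0.00109). The difference of ES from PAC was 0.48 (SE 0.22, adjusted p = 0.077). It passed the threshold in 9 of 20 alternatives, among them DESeq2 (0.57, adjusted p = 0.0234) and upper-quartile factors (0.79, adjusted p = 0.00565), and also without ES replicate 1 (0.66) or PAC replicate 3 (0.63).

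Spam1 and Spaca7, which act on the cumulus, also peaked in RS. Spam1 (chromosome 6, 24791188 to 24801048) had 48.1, 59.2 and 64.1 CPM in PAC, 179, 191 and 171 in RS, and 63.3, 68.1 and 67.0 in ES. Its RS libraries stood apart, and those of PAC and ES overlapped. Spam1 rose 3.16-fold in RS (log2 fold change 1.66, SE 0.14, adjusted p = 1.66e-06) and fell 2.73-fold in ES (-1.45, SE 0.14, adjusted p = 1.18e-05), which was the steepest fall among the 10. In ES against PAC it gave 0.21 (SE 0.13, adjusted p = 0.188), called higher in 3 of 20 alternatives. Spaca7 (chromosome 8, 12573036 to 12600739) had 20.03, 30.6 and 33.3 CPM in PAC, 87.7, 79.1 and 73.4 in RS, and 56.9, 44.1 and 47.7 in ES, with no overlap between any pair of cell types. It rose 2.87-fold in RS (1.52, SE 0.19, adjusted p = 3.2e-05) and fell 1.62-fold in ES (-0.69, SE 0.19, adjusted p = 0.0104), and ES remained above PAC (0.83, SE 0.19, adjusted p = 0.00242).

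Spaca3 (chromosome 11, 80858363 to 80867814), the lysozyme-like gene, had 96.5, 122 and 100.3 CPM in PAC, 321, 323 and 300.3 in RS, and 125, 129.9 and 122 in ES. RS was again apart from both other cell types. Spaca3 rose 2.96-fold in RS (log2 fold change 1.57, SE 0.13, adjusted p = 1.6e-06) and fell 2.51-fold in ES (-1.33, SE 0.13, adjusted p = 1.37e-05). Its ES libraries lay above its PAC libraries in CPM, and the difference of 0.24 did not pass (SE 0.13, adjusted p = 0.116). It depended on the scaling: it was called higher in 6 of 20 alternatives, up to 0.55 with upper-quartile factors, and its sign turned with total counts alone (-0.05) and from FPKM (-0.03). In FPKM Spaca3 stood at 0.863 ± 0.0323, 0.858 ± 0.0561 and 0.773 ± 0.0428 times (SD, n = 3) the level of Acrv1 in PAC, RS and ES, so the pair kept nearly the same proportion while both went up and down.

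Spaca9 (chromosome 2, 28692080 to 28699651) took the third course. It had 17.9, 23.1 and 15.6 CPM in PAC, 84.6, 89.2 and 79.2 in RS, and 143, 97.1 and 76.9 in ES. Every PAC library was far below the rest, and ES, with the largest SD in CPM of the 10 in that cell type (33.7), enclosed RS. Spaca9 rose 4.46-fold in RS (log2 fold change 2.16, SE 0.23, adjusted p = 8.11e-06), the largest rise among the 10, and its change from RS to ES of 0.32 did not pass (SE 0.21, adjusted p = 0.238) and turned to -0.04 with total-count scaling. Without ES replicate 1, the highest of the 3, it was 0.05. ES stood 5.58-fold above PAC (2.48, SE 0.23, adjusted p = 3.69e-06). The annotated spans of Spaca9 and Ak8 share 1377 bases. Ak8, an adenylate kinase gene of cilia and flagella, passed no comparison. It had 69.98 ± 30.1 CPM (SD, n = 3) in PAC, 88.1 ± 4.401 in RS and 99.2 ± 36.4 in ES. Its mean in PAC was above the 18.9 CPM of Spaca9. Since it is not given whether the counting used strand, reads from the shared stretch may belong to either gene.

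**Figure D2:**
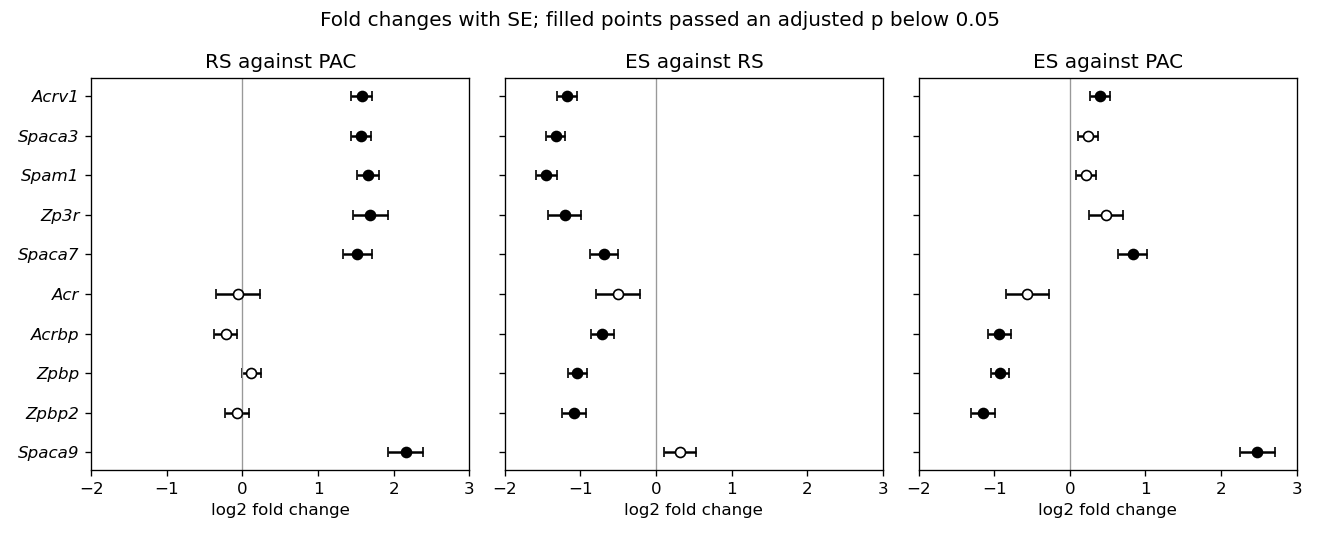
Log2 fold change (horizontal axis) of each gene in the 3 comparisons of cell types, with its standard error (bars); filled points passed an adjusted p below 0.05. The upper 5 genes lie between 1.52 and 1.69 in RS against PAC, and 8 of the 10 lie to the left of 0 with filled points in ES against RS.

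Levels can be compared between genes only per length, here in FPKM. In PAC 5 genes lay close together at the top: Acrbp at 165 ± 27.3 FPKM (SD, n = 3), Zpbp at 159 ± 12.2, Acrv1 at 159 ± 23.2, Zpbp2 at 159 ± 23.1 and Spaca3 at 137 ± 21.4, each overlapping the next. The other 5 were lower, from Acr at 46.7 ± 16.6 to Zp3r at 23.96 ± 7.17, and neighbours overlapped there too. In RS the order was wider and clearer. Acrv1 led with 494 ± 50.7 FPKM, rank 183 of 21877 NCBI genes, followed by Spaca3 with 422 ± 17.3, rank 236, and Zpbp with 188 ± 8.29, and none of the 3 overlapped the gene below it. Zpbp2 (157 ± 13.5), Acrbp (151 ± 12.1) and Spaca9 (137 ± 7.83) overlapped in turn. Spaca7 (114 ± 10.8), Spam1 (93.7 ± 4.92), Zp3r (80.2 ± 6.19) and Acr (46.5 ± 2.70, rank 2218) followed without overlap, so that the acrosin gene was the lowest of the 10 in RS. In ES Acrv1 had the highest mean with 174 ± 21.8 FPKM, above Spaca3 (134 ± 16.04). Spaca9 (134 ± 28.02) overlapped both, and in ES replicate 1 it was above Acrv1 (162 against 149 FPKM). There Acr had the lowest mean with 26.8 ± 11.95, overlapping Zp3r (28.05 ± 8.64), which overlapped Spam1 (29.9 ± 4.03).

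**Figure D3:**
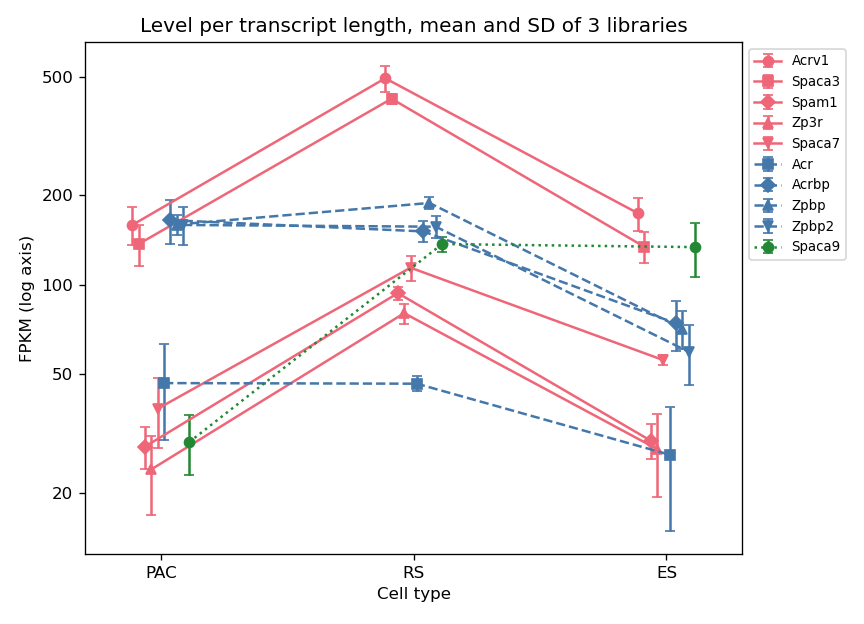
Level per transcript length (FPKM, log axis) of the 10 genes in PAC, RS and ES, as mean and SD of 3 libraries; solid lines mark the 5 genes that were highest in RS, dashed lines Acr, Acrbp, Zpbp and Zpbp2, and the dotted line Spaca9. Acrv1 and Spaca3 run nearly in parallel and lie highest in RS, and Acr has the lowest mean in RS and ES.

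RNA of the genes that peaked in RS was also counted in the PAC libraries, at levels alike in proportion to RS. Mean CPM in PAC was 33.4% of that in RS for Acrv1, 33.7% for Spaca3, 31.7% for Spam1, 31% for Zp3r and 34.9% for Spaca7. Across pairs of single libraries these shares ran from 20% (Zp3r) to 45.3% (Spaca7). Spaca9 was at 22.4%, and Zpbp, Acr, Zpbp2 and Acrbp were at 92.1%, 104%, 105% and 116%. PAC libraries also held RNA of late spermatid genes: the protamine gene Prm1 and the transition protein gene Tnp1, both of condensing chromatin, each stood at 11% of RS in PAC, and over the 12 elongating spermatid markers the share ran from 11% to 52.7% (Odf2). Over the 7 round spermatid markers the share ran from 14.1% (Tssk6) to 137% (Spata16), with Crem at 69.5%. Among them the channel gene Catsper3 was at 28.9% and Spaca1 and Izumo1, genes of the acrosomal membrane and of fusion with the egg, at 32.7% and 33.6%. The part of spermatid RNA in the PAC values was not tested.

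**Figure D4:**
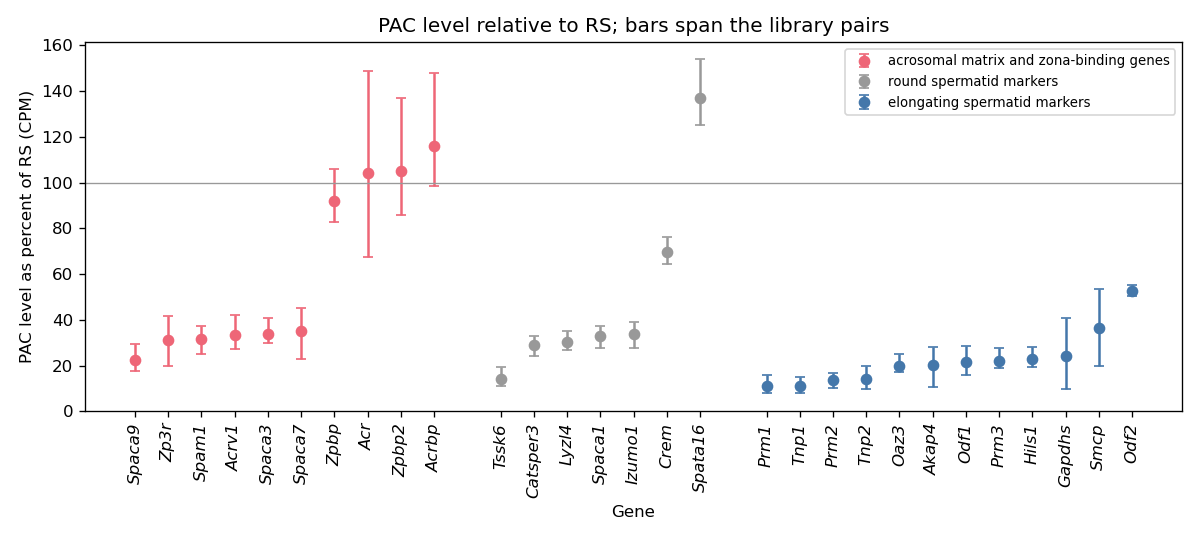
Mean CPM in PAC as a percent of that in RS (vertical axis, from 0) for the 10 genes and for the markers of round and elongating spermatids; bars span the lowest and highest ratio of single PAC and RS libraries. Zp3r, Spam1, Acrv1, Spaca3 and Spaca7 sit between 31% and 34.9%, inside the range of both marker lists. Elongating spermatid markers run from 11% (Prm1 and Tnp1) to 52.7% (Odf2), and round spermatid markers from 14.1% (Tssk6) to 137% (Spata16).

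Likeness of course was measured as the root-mean-square difference of log2 CPM over the 9 libraries, each gene centred on its own mean. It describes these libraries, which all genes share. Acrv1 and Spaca3 differed by 0.10, Spam1 and Spaca3 by 0.12, and Zpbp and Zpbp2 by 0.14. Within the 5 genes of the RS peak the largest difference was 0.36 (Spam1 and Spaca7), and between Acrv1 and Acrbp it was 0.78. Spaca9 was farthest from the rest, at 0.71 from its nearest member, Spaca7. Among 7726 NCBI genes with a mean of at least 10 CPM, the gene most like each member was never another member. Spaca3 was closest to Lyzl6 (0.05), itself a lysozyme-like gene, at 66.2 ± 10.4, 195 ± 10.3 and 76.8 ± 6.93 CPM (SD, n = 3) in PAC, RS and ES. The gene nearest to Acrv1 was Tsga8 (0.06), and Spam1 was nearest to Tmem225 (0.06), Zp3r to Cfap47 (0.13) and Spaca7 to Ccer1 (0.08). For Acr the nearest was Gm17359 (0.07), for Acrbp Selenoi (0.04), for Zpbp the cyclin gene Ccnb2 (0.06), for Zpbp2 Fam170a (0.08) and for Spaca9 Cpxcr1 (0.06). With so many genes over so few libraries close matches are common: 269 genes were closer to Acr than Acrbp was, and 21 were closer to Spaca3 than Acrv1 was.

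The sequences upstream of the genes differed in CpG content, a measure chosen after the sequences had been read. RefSeq windows of 250 bases before an annotated start site (GRCm38.p6) were held for 9 of the 10 genes, Acr having none in that table, and for Spaca3 at 2 starts. Acrv1, Spam1 and Zp3r had 0 CpG pairs in that window and Spaca7 had 1, while Spaca3 had 5 at either start. Zpbp had 4 (at a start inside its annotated span), Acrbp 11 and Zpbp2 19, and Spaca9 had 15. Over all 32851 windows of this length the median was 6, 18.8% held 1 or fewer, and 27.3% held 15 or more. The courses overlapped in this count, since Spaca3 of the RS peak had more pairs than Zpbp. The windows below were picked from genes far apart in CpG pairs, first 2 genes of the RS peak, then 2 genes with no call between PAC and RS, and Spaca9. Each runs 5′ to 3′ on the strand of its gene, with CpG pairs in capitals, at chr9:36692970-36693219 (+) for Acrv1, chr6:24790938-24791187 (+) for Spam1, chr6:125049677-125049926 (+) for Acrbp, chr11:98550847-98551096 (+) for Zpbp2 and chr2:28699652-28699901 (-) for Spaca9.
Acrv1: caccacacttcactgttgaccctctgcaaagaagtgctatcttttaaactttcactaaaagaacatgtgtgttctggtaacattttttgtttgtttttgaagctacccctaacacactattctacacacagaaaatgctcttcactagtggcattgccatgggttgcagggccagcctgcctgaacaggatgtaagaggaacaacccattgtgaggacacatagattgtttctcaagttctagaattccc
Spam1: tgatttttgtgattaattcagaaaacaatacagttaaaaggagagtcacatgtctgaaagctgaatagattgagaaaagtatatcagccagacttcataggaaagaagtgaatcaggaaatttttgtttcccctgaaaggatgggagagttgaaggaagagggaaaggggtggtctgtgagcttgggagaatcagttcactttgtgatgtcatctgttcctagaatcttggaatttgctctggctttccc
Acrbp: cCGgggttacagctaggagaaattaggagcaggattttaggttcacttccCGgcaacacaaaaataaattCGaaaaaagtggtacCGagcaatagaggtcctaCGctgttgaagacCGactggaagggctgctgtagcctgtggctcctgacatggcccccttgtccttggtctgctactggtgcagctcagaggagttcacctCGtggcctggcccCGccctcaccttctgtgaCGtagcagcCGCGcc
Zpbp2: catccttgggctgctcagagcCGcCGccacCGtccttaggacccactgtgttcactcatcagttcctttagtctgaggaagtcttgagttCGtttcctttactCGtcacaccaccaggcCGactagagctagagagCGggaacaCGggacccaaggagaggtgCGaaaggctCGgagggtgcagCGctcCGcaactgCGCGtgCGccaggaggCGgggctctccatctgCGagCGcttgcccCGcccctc
Spaca9: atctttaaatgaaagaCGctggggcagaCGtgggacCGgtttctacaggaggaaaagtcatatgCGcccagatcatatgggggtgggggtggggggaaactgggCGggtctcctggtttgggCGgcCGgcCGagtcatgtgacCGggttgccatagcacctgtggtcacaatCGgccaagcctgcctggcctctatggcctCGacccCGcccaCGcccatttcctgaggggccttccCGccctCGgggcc

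The windows of Acrv1 and Spam1 thus carry no capitals, and those of Zpbp2 and Spaca9 carry them along most of their length. Motifs of factors known in male germ cells were searched on both strands of the same 10 windows. TGACGT, part of the cAMP response element bound by CREM, was found in 1 window (6.47% of all windows), that of Acrbp, 18 bases before the start, and the full palindrome TGACGTCA in 0 (1.55%). GTTGCCA, part of the X-box bound by RFX factors, was found in 1 (3.66%), that of Spaca9, 104 bases before the start. TAACNG, the core bound by MYB proteins, was found in 2 (19.8%), those of Zp3r and Spam1, and TATAAA in 1 (12.4%), that of Spaca7, 242 bases before the start. The first 2 of these motifs overlap by construction. A match of letters is a description and not a site of binding.

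Other genes of the acrosome were read from fixed lists. Of 17 genes of the acrosomal membrane and of sperm-egg fusion 15 rose and 0 fell in RS against PAC, with a median log2 fold change of 1.54, and 12 fell and 0 rose in ES against RS, with a median of -1.01. Izumo1, whose protein binds the egg, went from 42.2 CPM in PAC to 126 in RS and 64.05 in ES. Spesp1, an equatorial segment gene, had 465, 521 and 221 CPM and no call from PAC to RS (adjusted p = 0.263). Of 19 genes for forming the acrosome from the Golgi 6 rose and 8 fell in RS, with a median of -0.40, and 6 rose and 6 fell in ES against RS. Among those that fell in RS were Dpy19l2, a nuclear envelope gene that anchors the acrosome, at 368 CPM in PAC and 274 in RS, and Spata16 at 525 and 382. The median over all features was 0.11 in RS against PAC and 0.05 in ES against RS, and over tested NCBI genes alone, the class of these lists, it was -0.46 and 0.18. The median of the genes for forming the acrosome in RS was thus near that of NCBI genes. Over all features 38.2% were called higher and 34.2% lower in RS against PAC, and 24.5% and 22.1% in ES against RS.

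The nearest relatives of Spam1 and Spaca3 were followed as families. Of the 6 other hyaluronidases 5 could be tested, and in RS against PAC 1 rose and 2 fell. Over all features 38.2% were called higher and 34.2% lower in that comparison. Hyal5, which like Spam1 is a sperm hyaluronidase, rose from 77.04 CPM in PAC to 232 in RS and fell to 107 in ES. Hyal4 fell from 107 in PAC to 52.0 in RS, and Hyal6 had 229, 182 and 128 CPM with no call from PAC to RS. Reads in stretches that Spam1 and Hyal5 share cannot be assigned with certainty. Of the 6 other c-type lysozymes 5 could be tested and 5 rose in RS. The 4 testis members Lyzl1, Lyzl4, Lyzl6 and Spaca5 fell in ES, and Lyz2, the lysozyme of macrophages, rose there from 3.44 to 8.47 CPM. Over all features 22.1% were called lower and 24.5% higher in ES against RS. Among the proteases and inhibitors, 4 of 9 rose and 3 fell in RS. Prss37 and Prss55 went on rising in ES, to 604 and 224 CPM, and Spink2, an inhibitor of acrosin, fell at both steps, from 866 to 627 and 395 CPM.

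Of 14 genes tested for zona binding through the ADAM3 system 6 rose and 6 fell in RS against PAC (median log2 fold change 0.11). From RS to ES 5 rose and 5 fell (median 0.04). Over all features 38.2% rose and 34.2% fell at the first step, and 24.5% and 22.1% at the second. The medians over all features were 0.11 and 0.05, and over tested NCBI genes -0.46 and 0.18. Adam3 itself rose from 1976 CPM in PAC to 2817 in RS and was at 2830 in ES. Its testis chaperone genes Calr3 and Pdilt rose in RS, from 24.2 to 100.4 and from 82.0 to 230.4 CPM, whereas Clgn fell from 1197 to 714. Of 9 further genes tested for acrosome content and exocytosis 1 rose, Crisp2, and 4 fell in RS, with a median of -0.51. The 3 zona pellucida genes of the oocyte, Zp1, Zp2 and Zp3, had too few counts to be tested. They summed to between 0.0311 and 0.0731 CPM in PAC and to at most 0.0292 in RS and 0.0473 in ES, so the genes of the coat itself were near 0 in these libraries.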

How the data were processed

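Per the labels' protocols, ribosomal RNA was removed from total RNA and strand was kept with dUTP. HISAT2 and StringTie, without versions, and the build GRCm38.p6 are listed per the submitters' processing notes. The authors deposited estimated counts that were not normalised, and since 18.85% of them were not whole they were rounded. The authors' deposited FPKM table served for levels per length, and its lengths are not stated. Symbols came from a RefSeq table of the same build and matched 21726 of 21877 gene rows. Promoter windows came from RefSeq.

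Features were kept by filterByExpr (minimum count 10), leaving 26030, scaled by TMM and fitted over all 9 libraries with edgeR's robust quasi-likelihood test (two-sided). Benjamini-Hochberg adjustment ran over all features, with calls below 0.05. The alternatives were other scalings (DESeq2's factors, upper quartile, total counts), no filter or a minimum of 50, DESeq2, only the 2 cell types compared, a replicate block, limma on log2 FPKM with a pseudocount of 1 or 0.1, gene rows alone, and each library left out. The submitters' design calls the libraries biological replicates without tying them to separate animals, so p-values measure the spread between these libraries, which may be technical. No 2 libraries of a cell type agreed within sampling noise (chi-square per degree of freedom at least 6.18). Genes named are the 10 members and, for each, the gene of the smallest distance, with others from the fixed lists, whose examples were picked after their values were seen. Members and lists were chosen with earlier results of these data known. Tables and figures used matplotlib 3.10.9 and pandas 2.3.3 in Python 3.11.15; fits used DESeq2 1.42.0, limma 3.58.1 and edgeR 4.0.16 in R 4.3.3. Planned protein sequences were not used here.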

Additional observations from a re-analysis of the deposited data

How the results depend on the processing

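Of 600 log2 fold changes of the members (10 genes, 3 comparisons, 20 alternatives) 544 kept their direction and their side of the threshold. Under all 20 the 6 genes stayed higher in RS than in PAC, 8 stayed lower in ES than in RS, and Acrbp, Zpbp and Zpbp2 stayed lower and Spaca7 and Spaca9 higher in ES than in PAC. The adjusted p of Spaca7 in ES against RS was 0.0104, and over the alternatives it ran from 0.000768 to 0.0456. The count of members higher in ES than in PAC, 3, was the least settled: it was 5 with DESeq2's size factors in edgeR, 6 with upper-quartile factors, 5 with the stricter filter, 6 with DESeq2, 5 with the 2 cell types alone, 6 with gene rows alone, 2 with total counts alone and from FPKM with either pseudocount, and between 2 and 4 with a library left out. The direction turned, always in a value past no threshold, in these cases. With upper-quartile factors RS against PAC gave 0.26 for Acr, 0.10 for Acrbp and 0.24 for Zpbp2, and with gene rows alone 0.32, 0.17 and 0.33. With total counts alone ES against RS gave -0.04 for Spaca9, and ES against PAC gave -0.07 for Spam1 and -0.05 for Spaca3. The stricter filter gave 0.03 for both Acr and Zpbp2 in RS against PAC. From FPKM, with either pseudocount, Acr gave 0.05 in RS against PAC, Spaca9 -0.05 in ES against RS and Spaca3 -0.03 in ES against PAC. Leaving out PAC replicate 1 or RS replicate 1 turned Zpbp2 in RS against PAC to 0.07 or 0.01, and leaving out PAC replicate 3 turned Acr to 0.24. Over the left-out libraries Zpbp2 ran from -0.13 to 0.07. The cause was not tested.

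With a replicate block Acr came to 0.02 in RS against PAC, and 6, 9 and 8 members were called in RS against PAC, ES against RS and ES against PAC, against 6, 8 and 6. The members that gained a call with the block were Acr in ES against RS (-0.59, adjusted p = 0.0453), and Acr (-0.57, adjusted p = 0.0383) and Zp3r (0.49, adjusted p = 0.0124) in ES against PAC. The labels do not say what a number marks. Same-numbered libraries deviated together with correlations from -0.040 to 0.273, and 8 of 18 best matches were with the library's own number. Over all features, ES against RS called 6374 higher and 5752 lower; from FPKM 8934 were lower with a pseudocount of 1, and 4114 were higher and 8674 lower with 0.1. With gene rows alone, where fewer features are tested, 5175 were higher and 5459 lower in RS against PAC, and 4669 and 5509 in ES against PAC. Total-count scaling moved the median of all features in ES against RS from 0.05 to -0.28, and upper-quartile factors moved it in RS against PAC from 0.11 to 0.42. The lowest count of a member was 434, for Spaca9 in 1 PAC library.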

Other observations

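The counts of CpG pairs upstream of the acrosomal genes, which overlapped between the courses, were set beside those of all tested NCBI genes, grouped by the same calls. The 1629 genes called higher in RS than in PAC and lower in ES than in RS had a median of 6 CpG pairs in the 250 bases before a start site (1565 windows of 1298 genes), and 20.1% of those windows held 1 or fewer. The 813 genes with no call from PAC to RS and ES below both had a median of 15 (781 windows of 641 genes), and 3.84% held 1 or fewer. The 1106 genes with PAC below both others and no call between RS and ES, the course of Spaca9, had a median of 8 and 14.4%. Over all 15031 tested NCBI genes the median was 14, and 7.43% of windows held 1 or fewer. Windows of 1 gene can overlap, and the groups come from the same libraries as the members, so these are descriptions with no test.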
